A study of Mus musculus with 12 samples.

Results

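The genes described here are 40 genes of the extracellular matrix and of the fibroblasts that make it, followed through 12 mouse muscle RNA-seq libraries. They were chosen by name, as collagens, basement membrane proteins, matrix glycoproteins, proteoglycans, crosslinking enzymes, proteases with their inhibitors, and fibroblast genes. Earlier results of these data were known when the list was made. Shares of the 40 set beside those of all genes below are therefore descriptions, not tests of the list. All 40 were found among the 47729 genes of the count table by Ensembl identifier, and all 40 passed the filter on low counts, which kept 14194 genes. Ctgf stands under its newer symbol Ccn2 in the annotation and is called Ctgf below.

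The study set treadmill-exercised against sedentary male mice in NRF2-knockout (NRF2-KO, here KO) and wild-type (WT) animals. The groups were KO treadmill, KO sedentary, WT treadmill and WT sedentary, with 3 libraries each. All animals were 5 months old and on a C57BL/6 background, and the sedentary groups had no exercise. Which muscle was sampled, how long the exercise lasted, how the knockout allele was made and whether the 3 libraries of a group are separate animals are not in the labels. The p-values therefore rest on the spread among libraries, which may be technical.

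The extracellular matrix of muscle has an interstitial part of fibrillar collagens, collagen VI, glycoproteins and proteoglycans, and a basement membrane of collagen IV, laminins, nidogen and perlecan around each fibre and vessel. Fibroblasts and related stromal cells make most of the interstitial part, and TGF-beta, encoded by Tgfb1, is the best known inducer of collagen genes in them. The product of Nfe2l2, NRF2, binds antioxidant response elements in DNA and is best known for controlling detoxification and redox genes.

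Libraries held 21232040 to 29990968 counts. Nfe2l2 had 54 to 84 counts in the KO libraries and 830 to 1275 counts in the WT libraries, so every library carried the transcript level of its genotype label. Per the labels, WT treadmill replicate 1 was sequenced on lane 8 and WT sedentary replicate 1 on lane 7, and the other 10 libraries on lanes 3 and 4. No KO library was on lane 7 or 8, so lane and these 2 samples cannot be told apart. The 8 myofibre genes summed to 108560 to 129580 CPM (counts scaled to a fixed library size with TMM factors) over the 12 libraries, and the 40 matrix genes to 2622.5 to 4001.4 CPM. The defining transcripts of muscle were thus abundant in every library. In bulk tissue, fewer cells of a type and less RNA per cell cannot be told apart.

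With lane as a term in the fit, 4 matrix genes passed for genotype averaged over exercise states: Col6a1, Col6a3, Timp2 and Serpinf1. Other fits, given below, called none or partly other genes. The promoters of these 4 are shown to let a reader look for known elements, followed by those of Col4a1 and Col4a2, which lie head to head. They are RefSeq sequences of GRCm38.p6, read 5′ to 3′ on each gene's strand from 250 bases before to 50 bases after the start, with motif matches in capitals. The windows are chr10:76725995-76726294 (minus strand) for Col6a1, chr1:90843922-90844221 (minus strand) for Col6a3, chr11:118355362-118355661 (minus strand) for Timp2, chr11:75422574-75422873 (minus strand) for Serpinf1, chr8:11312777-11313076 (minus strand) for Col4a1 and chr8:11312555-11312854 (plus strand) for Col4a2.
Col6a1: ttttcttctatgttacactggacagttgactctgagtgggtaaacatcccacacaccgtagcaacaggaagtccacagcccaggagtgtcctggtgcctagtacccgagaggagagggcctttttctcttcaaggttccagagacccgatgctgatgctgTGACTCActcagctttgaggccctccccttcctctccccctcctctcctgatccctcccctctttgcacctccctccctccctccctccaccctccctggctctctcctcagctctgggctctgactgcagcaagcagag
Col6a3: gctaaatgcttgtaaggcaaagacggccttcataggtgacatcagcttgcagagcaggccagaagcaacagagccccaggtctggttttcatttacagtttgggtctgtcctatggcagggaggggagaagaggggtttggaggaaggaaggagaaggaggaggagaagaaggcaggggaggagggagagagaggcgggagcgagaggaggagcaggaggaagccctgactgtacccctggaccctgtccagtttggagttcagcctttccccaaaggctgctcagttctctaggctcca
Timp2: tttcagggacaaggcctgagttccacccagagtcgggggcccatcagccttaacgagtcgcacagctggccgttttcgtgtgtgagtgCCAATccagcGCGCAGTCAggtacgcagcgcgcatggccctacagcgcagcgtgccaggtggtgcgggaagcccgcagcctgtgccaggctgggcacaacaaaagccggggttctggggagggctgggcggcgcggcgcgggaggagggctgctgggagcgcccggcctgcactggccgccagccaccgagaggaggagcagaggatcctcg
Serpinf1: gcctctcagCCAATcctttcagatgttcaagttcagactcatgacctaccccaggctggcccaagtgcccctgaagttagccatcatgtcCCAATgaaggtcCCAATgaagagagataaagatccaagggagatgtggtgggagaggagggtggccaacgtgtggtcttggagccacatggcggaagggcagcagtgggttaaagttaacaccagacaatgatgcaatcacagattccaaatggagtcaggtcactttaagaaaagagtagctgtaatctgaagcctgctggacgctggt
Col4a1: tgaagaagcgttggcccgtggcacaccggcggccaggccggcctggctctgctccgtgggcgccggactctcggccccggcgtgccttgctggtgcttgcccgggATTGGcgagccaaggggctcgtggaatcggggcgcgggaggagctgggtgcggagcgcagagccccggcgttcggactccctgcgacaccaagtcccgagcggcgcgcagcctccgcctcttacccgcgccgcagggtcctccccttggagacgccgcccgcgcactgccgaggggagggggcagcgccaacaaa
Col4a2: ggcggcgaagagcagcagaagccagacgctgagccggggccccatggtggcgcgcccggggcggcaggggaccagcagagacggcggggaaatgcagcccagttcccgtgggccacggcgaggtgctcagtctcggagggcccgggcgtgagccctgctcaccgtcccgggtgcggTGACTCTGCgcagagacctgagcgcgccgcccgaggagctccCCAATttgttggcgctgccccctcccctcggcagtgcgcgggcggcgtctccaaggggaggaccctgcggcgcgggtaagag
Capitals mark 4 motifs searched on both strands: TGACNNNGC, the core of the antioxidant response element that NRF2 binds, the CCAAT box, the TATA box with the letters TATAAA, and the AP-1 motif with the letters TGANTCA. Timp2 holds TGACNNNGC on its reverse strand and a CCAAT box. Serpinf1 holds 3 CCAAT boxes, Col6a1 holds the AP-1 motif, and Col6a3 holds none of the 4. Col4a2 holds TGACNNNGC and a CCAAT box, and Col4a1 holds another CCAAT box on the reverse of its own strand, although the windows overlap. The promoter table matched 27 of the 40 genes with 29 promoters. TGACNNNGC was in 4 of these 29 (13.8%, those of Col4a2, Col6a2, Postn and Timp2) against 12.4% of 32851 promoters of the same length. The CCAAT box was in 34.5% against 37.4%, the TATA box in 13.8% against 13.6% and the AP-1 motif in 3.45% against 7.81%. No 2 of these motifs overlap by their letters in the promoters shown. A match is a description of the letters, not a binding site.

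Per length of transcript, decorin was by far the most abundant of the 40 and Tgfb1 the least. Mean TPM (counts divided by exon length and scaled to a fixed sum) over the 12 libraries were 384 ± 42 for Dcn (SD, n = 12, here and in the rest of this paragraph), 144 ± 31.8 for Sparc and 138 ± 30.5 for Dpt. Sparc and Dpt did not differ beyond their spread. Timp2 and Lum came next with 71 ± 15.8 and 69.4 ± 16.5 TPM, also within each other's spread. Among the fibrillar collagens Col3a1 stood at 39.9 ± 15.8 TPM, Col1a2 at 23.5 ± 7, Col1a1 at 15.6 ± 6.71, Col5a2 at 7.43 ± 1.81 and Col5a1 at 5.24 ± 1.57. At the low end were Eln with 3.01 ± 0.815, Timp1 with 2.2 ± 0.801 and Tgfb1 with 1.25 ± 0.485 TPM. These levels use the union of annotated exons as length. For Dcn the deposited RPKM values imply a shorter length, 2084 against 5838 bases, so its level per length could be higher still.

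**Figure D1:**
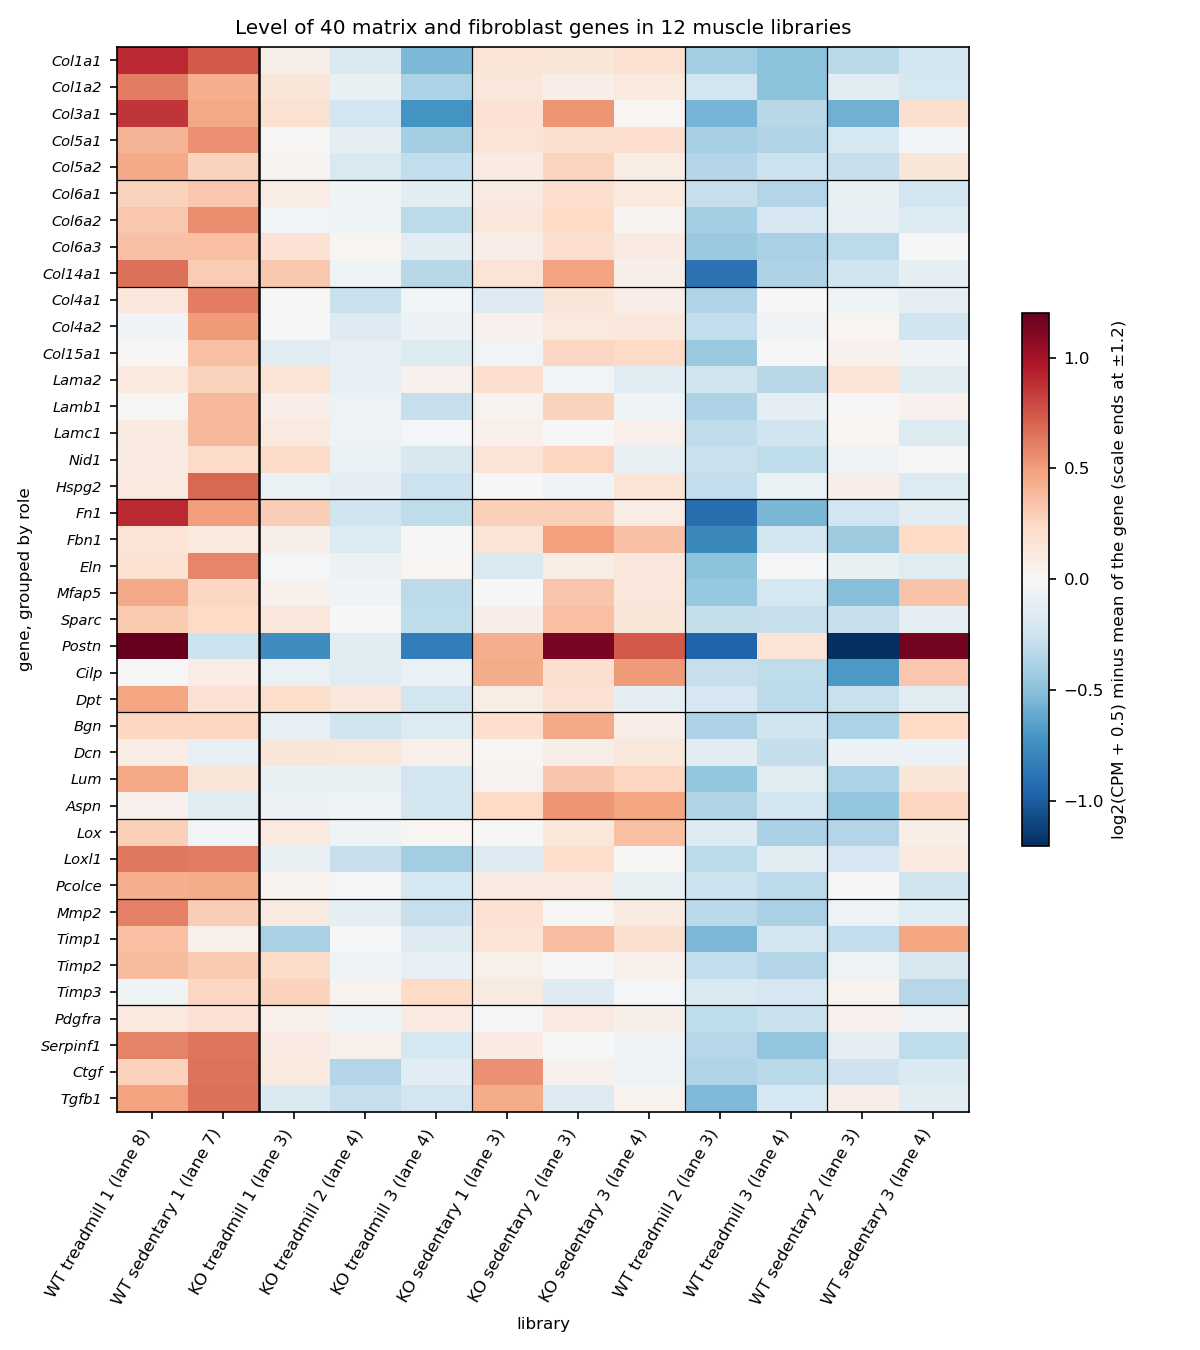
Level of each of the 40 genes (rows, grouped by role) in each library (columns), as log2(CPM + 0.5) minus the gene's mean over the 12 libraries, with colours ending at ±1.2. The columns of WT treadmill replicate 1 (lane 8) and WT sedentary replicate 1 (lane 7) are mostly red; both lay above all 10 other libraries in 16 of the 40 genes, and Postn varies most, from 11.3 to 107 CPM.

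More of these genes passed for lane than for genotype or exercise. The 2 WT libraries of lanes 7 and 8 had more matrix RNA than the rest: the 40 genes summed to 4001.4 CPM in WT treadmill replicate 1 (lane 8) and 3708.2 CPM in WT sedentary replicate 1 (lane 7), against 2622.5 to 3130.7 CPM in the 4 WT libraries of lanes 3 and 4. The 6 KO libraries, all on lanes 3 and 4, summed to 2912 to 3660.3 CPM. In a fit with 1 term per group and lane as a further term, 30 of the 40 genes rose and 0 fell in lanes 7 and 8 relative to lanes 3 and 4 (edgeR's quasi-likelihood test, Benjamini-Hochberg adjusted p under 0.05 over all genes tested). Among all 14194 genes, 18.9% passed this test in either direction and 9.43% rose. All 40 log2 differences were above 0, with a median of 0.55, against a median of 0.01 over all genes tested. With no KO library on lanes 7 and 8, these differences rest on the WT libraries, 2 against 4.

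Both libraries of lanes 7 and 8 lay above all 10 others in 16 of the 40 genes, or 40%, against 9.33% of all genes tested. These were Col1a1, Col1a2, Col5a1, Col5a2, Col6a1, Col6a2, Col6a3, Fn1, Eln, Loxl1, Pcolce, Mmp2, Timp2, Pdgfra, Serpinf1 and Tgfb1. The count of 30 genes was 30 with DESeq2 size factors in edgeR (background 9.22%), 27 by DESeq2 (6.59%), 36 with library totals alone (22.4%), 37 without the filter on low counts (6.92%) and 32 in the 6 WT libraries alone (9.21%). It was 18 without WT treadmill replicate 1 and 18 without WT sedentary replicate 1, each of which leaves 1 library on these lanes, and without WT treadmill replicate 1 4 of the 40 differences lay below 0. Scaling by library totals moved the median of all genes by 0.149 in this comparison. Fits without the filter may understate the spread among libraries, as given below for Postn.

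**Figure D2:**
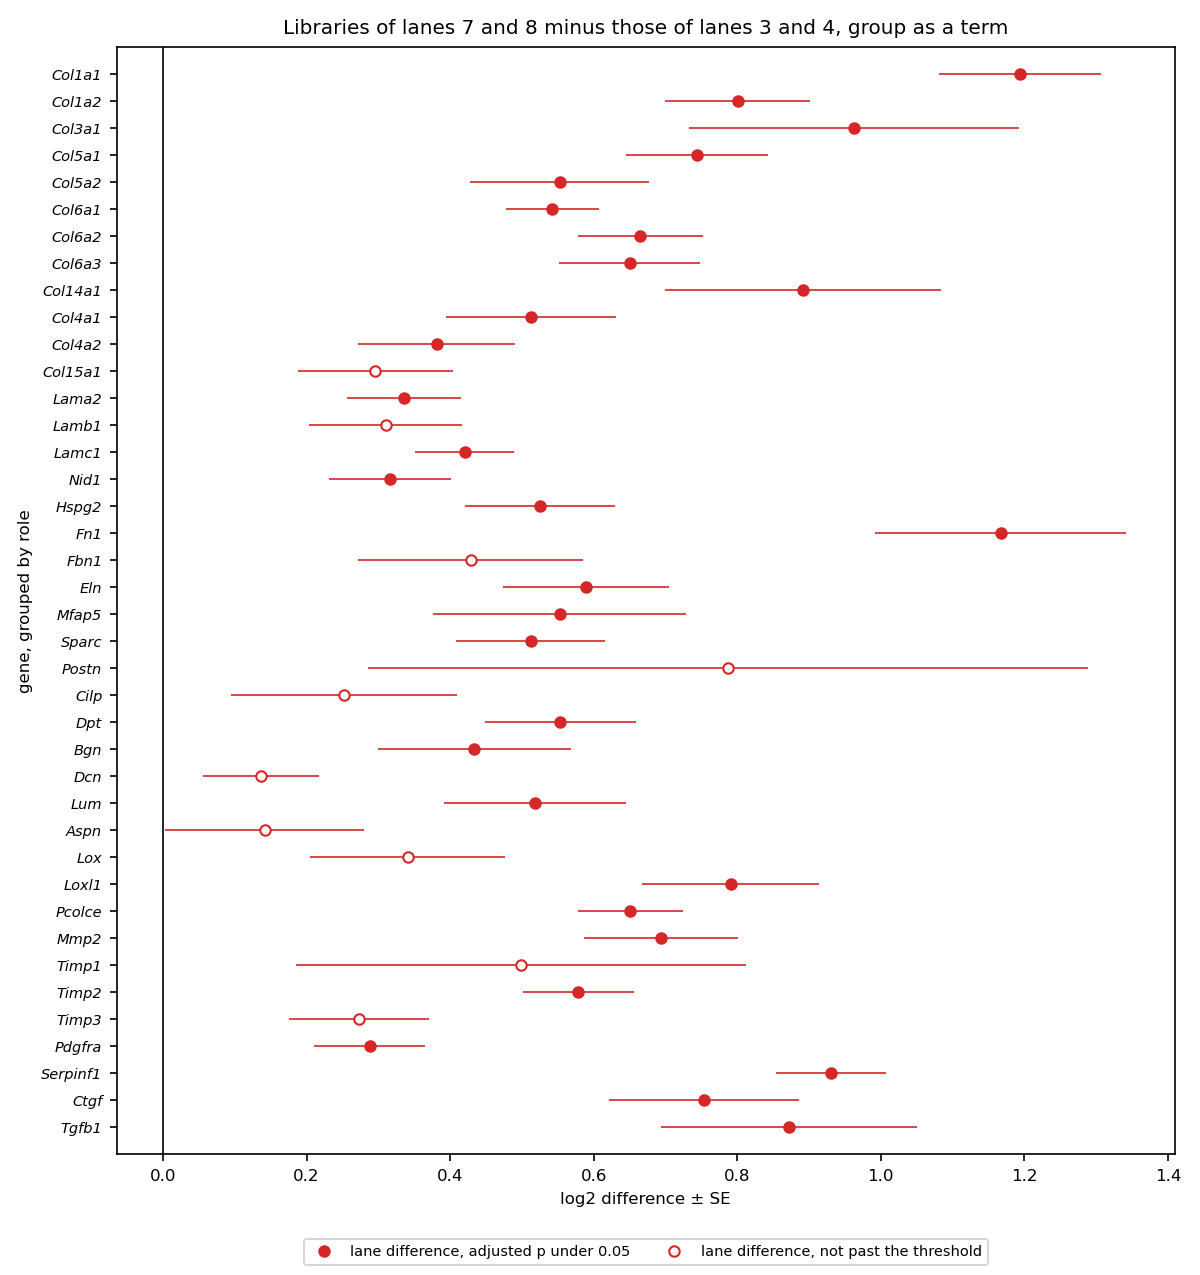
Log2 difference between the libraries of lanes 7 and 8 (n = 2, both WT) and those of lanes 3 and 4 (n = 10, of which 4 are WT) for each of the 40 genes. With group as a term the difference rests on the WT libraries, 2 against 4. Bars are standard errors and filled points passed at adjusted p under 0.05. All 40 points lie right of 0, and Col1a1 at 1.19 and Fn1 at 1.17 lie farthest out.

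In the value sentences below, the libraries of a group stand in the order of their replicate numbers, so the first value of WT treadmill is the lane 8 library and the first of WT sedentary the lane 7 library. Log2 differences for lane are lanes 7 and 8 minus lanes 3 and 4, from the fit above.

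Fibrillar collagens form the load-bearing fibres, and all 5 rose in lanes 7 and 8, with a median log2 difference of 0.80. Col1a1, which encodes the alpha-1 chain of collagen I, had 46.8, 39.5 and 30.7 CPM in KO treadmill, 49.7, 49.5 and 50.9 CPM in KO sedentary, 83.6, 33.4 and 31.6 CPM in WT treadmill and 74.7, 35.6 and 38 CPM in WT sedentary muscle. The lane 8 and lane 7 libraries were the highest of the 12, and the 4 other WT libraries overlapped the KO treadmill range. Its lane difference was 1.19 (SE 0.11, adjusted p = 2.26e-05), a 2.29-fold change. Its partner chain Col1a2 had 145, 124 and 101 CPM in KO treadmill, 145, 139 and 142 CPM in KO sedentary, 202, 112 and 93.1 CPM in WT treadmill and 178, 119.7 and 114 CPM in WT sedentary muscle. Lanes 8 and 7 were again on top, and the lane difference was 0.80 (SE 0.10, adjusted p = 0.000254). Col3a1, the collagen of reticular fibres, had 194, 145 and 103 CPM in KO treadmill, 192, 247 and 174 CPM in KO sedentary, 309, 116 and 136 CPM in WT treadmill and 236, 114 and 195 CPM in WT sedentary muscle. Here KO sedentary replicate 2 stood above the lane 7 library, so those libraries overlapped the rest, and the lane difference of 0.96 (SE 0.23, adjusted p = 0.0115) did not pass by DESeq2 or without WT treadmill replicate 1. Col5a1, a chain of the collagen V that starts fibril assembly, had 20.2, 18.5 and 14.9 CPM in KO treadmill, 22.4, 22.9 and 23.1 CPM in KO sedentary, 26.7, 15.1 and 15.5 CPM in WT treadmill and 29.6, 17.2 and 19.6 CPM in WT sedentary muscle. Col5a2, its partner, had 33.2, 28.5 and 26.4 CPM in KO treadmill, 34.8, 39.1 and 34.6 CPM in KO sedentary, 44.7, 25.2 and 27 CPM in WT treadmill and 39.3, 26.7 and 36 CPM in WT sedentary muscle. In both the KO sedentary libraries lay above every KO treadmill library. The lane differences were 0.74 and 0.55 (SE 0.12, adjusted p = 0.00845), and that of Col5a2 did not pass without WT treadmill replicate 1. Col3a1 and Col5a2 are neighbours on chromosome 1, 24614 bases apart and on opposite strands. Exons of Col5a1 overlap other annotated genes on the opposite strand, and because the kit does not mark strand, its counts are uncertain.

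Collagen VI links cells to the interstitial matrix, and its loss causes muscle disease in people and mice. All 3 of its chains measured and collagen XIV, which sits on fibril surfaces, rose in lanes 7 and 8, with a median of 0.66. Col6a1 (chromosome 10, 76708792 to 76726168, minus strand in GRCm38) had 55.1, 50.1 and 47.5 CPM in KO treadmill, 56, 59.8 and 56.3 CPM in KO sedentary, 63, 42.6 and 40.4 CPM in WT treadmill and 64.9, 48.8 and 44.1 CPM in WT sedentary muscle. Every KO library except KO treadmill replicate 3 exceeded the 4 WT libraries of lanes 3 and 4, whose range was 40.4 to 48.8 CPM. Its lane difference was 0.54 (SE 0.06, adjusted p = 0.000166). Col6a2, 85161 bases away on the same strand, had 38.8, 37.9 and 31.7 CPM in KO treadmill, 43.2, 46.6 and 40.5 CPM in KO sedentary, 49.6, 29.6 and 34.2 CPM in WT treadmill and 58.6, 37 and 35.2 CPM in WT sedentary muscle. The KO treadmill and KO sedentary libraries did not overlap in either gene, and KO treadmill was the lower. Col6a3 (chromosome 1, 90765923 to 90843971, minus strand) had 39.961, 36 and 32.4 CPM in KO treadmill, 37.6, 40.9 and 38.1 CPM in KO sedentary, 45.4, 25.9 and 27 CPM in WT treadmill and 45.7, 28.4 and 35.3 CPM in WT sedentary muscle. Its KO range of 32.4 to 40.9 CPM met the WT range of lanes 3 and 4, 25.9 to 35.3 CPM, only through WT sedentary replicate 3 and KO treadmill replicate 3. Col14a1 had 17.9, 13.5 and 11.1 CPM in KO treadmill, 15.8, 19.9 and 14.9 CPM in KO sedentary, 22.6, 7.4 and 10.9 CPM in WT treadmill and 17.6, 11.9 and 13.1 CPM in WT sedentary muscle. WT treadmill replicate 2 was the lowest and WT treadmill replicate 1 the highest of the 12, and the lane difference of 0.89 (SE 0.19, adjusted p = 0.00684) did not pass without WT treadmill replicate 1.

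Of the 8 basement membrane genes 6 rose in lanes 7 and 8, with a median of 0.36, which was the second lowest of the 8 role groups. Col4a1, a chain of the network-forming collagen IV, had 48.3, 39.6 and 46.8 CPM in KO treadmill, 42.7, 53 and 50.3 CPM in KO sedentary, 52.4, 37 and 48 CPM in WT treadmill and 73.2, 45.6 and 44 CPM in WT sedentary muscle. The lane 7 library alone stood apart, and the lane 8 library lay inside the range of the KO sedentary libraries. Without that lane 7 library the difference of 0.51 (SE 0.12, adjusted p = 0.00942) did not pass. Col4a2, which lies head to head with Col4a1, ranged over 26.4 to 46.5 CPM with a lane difference of 0.38, and its call was lost without any 1 of 4 WT libraries. The 2 genes overlap by 22 bases. Hspg2, which encodes perlecan, had 65.2, 63.9 and 57.6 CPM in KO treadmill, 69.1, 66.5 and 77.3 CPM in KO sedentary, 74.8, 56.2 and 65.4 CPM in WT treadmill and 112, 72.9 and 61.4 CPM in WT sedentary muscle. It too was highest in the lane 7 library, and its call was lost without it. Lamc1, the gamma-1 chain of most laminins, had 79.8, 70.3 and 72.7 CPM in KO treadmill, 76.7, 72.9 and 76.7 CPM in KO sedentary, 79, 59.4 and 62.1 CPM in WT treadmill and 96.3, 74.6 and 65.5 CPM in WT sedentary muscle. The WT treadmill libraries of lanes 3 and 4 were the lowest, and the lane call of 0.42 (SE 0.07, adjusted p = 0.0016) was lost without the lane 7 library. Lama2, the alpha-2 chain of the muscle laminin whose loss causes a congenital dystrophy, had 38.4, 32 and 35.4 CPM in KO treadmill, 39.3, 33.5 and 31.1 CPM in KO sedentary, 37.1, 28.9 and 27 CPM in WT treadmill and 41.7, 38.4 and 31.1 CPM in WT sedentary muscle. Its lane difference of 0.34 did not pass without either library of lanes 7 and 8. Nid1, the linker protein nidogen, ranged over 78.4 to 116 CPM and rose by 0.32, a call lost without any 1 of 4 WT libraries. Lamb1 (18.8 to 32.3 CPM) and Col15a1 (10.1 to 17.9 CPM), a laminin chain and a collagen of the basement membrane zone, did not pass, with 0.31 and 0.30. Counts of Col4a1, Col4a2, Col15a1, Lama2 and Nid1 are uncertain through exon overlap with genes on the other strand.

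Of the 8 glycoproteins and elastic fibre genes 5 rose in lanes 7 and 8, with a median of 0.55. Fn1, which encodes fibronectin, had 91.1, 62.9 and 59.9 CPM in KO treadmill, 90.5, 90.5 and 79 CPM in KO sedentary, 139, 39.4 and 50.5 CPM in WT treadmill and 105, 63.1 and 67.7 CPM in WT sedentary muscle. The lane 8 and lane 7 libraries were the highest, and its spread within WT treadmill, 39.4 to 139 CPM, was wider than in the other 3 groups. Its lane difference was 1.17 (SE 0.17, adjusted p = 0.000916). Sparc, a collagen-binding matricellular protein, had 274, 248 and 201 CPM in KO treadmill, 263, 320.1 and 275 CPM in KO sedentary, 310.0, 205 and 206 CPM in WT treadmill and 295, 206 and 231 CPM in WT sedentary muscle. Dpt, which encodes dermatopontin, had 126, 119.5 and 93.3 CPM in KO treadmill, 116, 123 and 101 CPM in KO sedentary, 152, 94.6 and 87.9 CPM in WT treadmill and 123, 90.7 and 99.97 CPM in WT sedentary muscle. In both genes a KO library lay within or above the range of lanes 7 and 8, and both calls were lost without WT treadmill replicate 1. Eln, the elastin gene, had 11, 10.5 and 11.3 CPM in KO treadmill, 9.72, 11.8 and 12.2 CPM in KO sedentary, 12.6, 7.74 and 11 CPM in WT treadmill and 16.9, 10.4 and 10.001 CPM in WT sedentary muscle. It rose by 0.59, was highest in the lane 7 library and did not pass without it. Mfap5, a microfibril protein, ranged over 19.6 to 38.9 CPM and rose by 0.55, with a call that was lost by DESeq2 and without any 1 of 5 WT libraries. Fbn1, which encodes fibrillin-1, ranged over 24.4 to 59.5 CPM and did not pass, with 0.43. Counts of Fn1, Eln and Fbn1 are uncertain through exon overlap with genes on the other strand.

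Postn and Cilp, also in this group, did not pass for lane and varied widely inside the WT sedentary group, and Postn inside the WT treadmill group too. Postn, the matricellular protein periostin, had 26.7, 41.1 and 25.1 CPM in KO treadmill, 60.9, 99.6 and 75.4 CPM in KO sedentary, 107, 22.8 and 50.4 CPM in WT treadmill and 37.5, 11.3 and 100.1 CPM in WT sedentary muscle. WT sedentary spanned 11.3 to 100.1 CPM; no KO treadmill library reached the lowest KO sedentary one. Its lane difference of 0.79 (SE 0.50, adjusted p = 0.298) did not pass. Cilp, the cartilage intermediate layer protein, had 34.6, 32.9 and 34.6 CPM in KO treadmill, 49.9, 42.1 and 52.1 CPM in KO sedentary, 36.3, 30.1 and 29.5 CPM in WT treadmill and 38.9, 22.4 and 45.9 CPM in WT sedentary muscle. It was lowest in WT sedentary replicate 2 and highest in KO sedentary replicate 3, and its lane difference was 0.25, not past the threshold.

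The small leucine-rich proteoglycans coat collagen fibrils, and 2 of the 4, Bgn and Lum, rose in lanes 7 and 8. Dcn, which encodes decorin, had 1151, 1144 and 1082 CPM in KO treadmill, 1050.5, 1093 and 1144 CPM in KO sedentary, 1109, 955 and 851 CPM in WT treadmill and 971, 989.5 and 993 CPM in WT sedentary muscle. Every KO library lay above every WT library of lanes 3 and 4, the 1 gene of the 40 of which this held, against 1.61% of all genes tested. The lane 8 library lay inside the KO range and the lane 7 library inside the range of the other WT libraries. Lum, the lumican gene, 46984 bases from Dcn on chromosome 10, had 72.9, 72.9 and 65.9 CPM in KO treadmill, 79.6, 97.9 and 92.6 CPM in KO sedentary, 107, 56.2 and 69.9 CPM in WT treadmill and 85.9, 59.5 and 85.5 CPM in WT sedentary muscle. Its lane difference of 0.52 (SE 0.13, adjusted p = 0.0129) did not pass without WT treadmill replicate 1. Aspn, which encodes asporin, had 50.8, 51.5 and 45.6 CPM in KO treadmill, 63, 77.2 and 74.2 CPM in KO sedentary, 55.4, 41.5 and 45.5 CPM in WT treadmill and 48.1, 38.6 and 63.9 CPM in WT sedentary muscle. The KO sedentary libraries were high, 2 of them above every other library, and WT sedentary replicate 3 reached their range. Aspn and Dcn had the lowest lane differences of the 40, both 0.14, and neither passed. Bgn, the biglycan gene on the X chromosome, ranged over 56.1 to 101 CPM, and its rise of 0.43 was lost under 6 of 17 alternatives.

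The genes of collagen processing and crosslinking were led by the procollagen C-proteinase enhancer Pcolce, which had 32.8, 31.4 and 27.5 CPM in KO treadmill, 34.1, 34.3 and 29.9 CPM in KO sedentary, 43.3, 26.6 and 25.5 CPM in WT treadmill and 43.5, 31.7 and 27 CPM in WT sedentary muscle. The lane 8 and lane 7 libraries were the 2 highest, and the difference was 0.65 (SE 0.07, adjusted p = 0.000111). Loxl1, a lysyl oxidase needed for elastic fibres, had 9.95, 8.72 and 7.81 CPM in KO treadmill, 9.5, 12.4 and 10.8 CPM in KO sedentary, 16.8, 8.43 and 9.62 CPM in WT treadmill and 16.7, 9.15 and 11.5 CPM in WT sedentary muscle. It too had lanes 8 and 7 on top, with a difference of 0.79. Lox itself, the main crosslinking enzyme of collagen, ranged over 10.5 to 18.1 CPM and did not pass, with 0.34. Exons of Pcolce and Lox, and by 7 bases those of Aspn, overlap genes on the other strand, so their counts are uncertain.

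Mmp2 and Timp2 rose in lanes 7 and 8, and Timp1 and Timp3 did not pass. Mmp2, the gelatinase A of fibroblasts, had 56, 47.9 and 42.8 CPM in KO treadmill, 58.4, 52.4 and 55.9 CPM in KO sedentary, 79, 41.3 and 39.6 CPM in WT treadmill and 63.9, 49.6 and 46.8 CPM in WT sedentary muscle. Timp2, an inhibitor that also takes part in activating the Mmp2 protein (chromosome 11, 118301069 to 118355740, minus strand), had 147, 122 and 118 CPM in KO treadmill, 132, 127 and 132 CPM in KO sedentary, 165, 103 and 99.3 CPM in WT treadmill and 158, 121 and 110.5 CPM in WT sedentary muscle. Both genes had the lane 8 library highest and the lane 7 library next, with lane differences of 0.69 and 0.58. Timp3, an inhibitor bound to the matrix, had 95.8, 81.1 and 92.8 CPM in KO treadmill, 85, 70.7 and 77.3 CPM in KO sedentary, 75.8, 69.5 and 68.5 CPM in WT treadmill and 94.4, 81.2 and 61.9 CPM in WT sedentary muscle. Every KO treadmill library lay above every WT treadmill library, the 1 such gene of the 40, against 5.88% of all genes tested. Its exons overlap those of Syn3 on the other strand, so its counts are uncertain. Timp1 was counted 9 to 39 times per library, or 0.444 to 1.41 CPM, so its values carry large counting errors.

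All 4 fibroblast and secreted-factor genes rose in lanes 7 and 8, with a median of 0.81. Serpinf1, which encodes the secreted protein PEDF (chromosome 11, 75409769 to 75422701, minus strand), had 49.2, 47.9 and 39.6 CPM in KO treadmill, 49.4, 45.9 and 44.7 CPM in KO sedentary, 69.5, 36 and 33 CPM in WT treadmill and 71.8, 42.6 and 37.2 CPM in WT sedentary muscle. The lane 7 and lane 8 libraries were the 2 highest, at 71.8 and 69.5 CPM against 49.4 CPM or less in the others, and the difference of 0.93 (SE 0.08, adjusted p = 7.92e-06) had the lowest p of the 40. Ctgf, a matricellular target of TGF-beta and mechanical load, had 25.1, 18 and 21.2 CPM in KO treadmill, 34.1, 23.9 and 22.2 CPM in KO sedentary, 28.1, 18 and 18.3 CPM in WT treadmill and 36.6, 19.4 and 20.4 CPM in WT sedentary muscle. KO sedentary replicate 1 reached the range of lanes 7 and 8, so the lanes overlapped, and the call was lost without the lane 7 library. Tgfb1 had 2.42, 2.21 and 2.31 CPM in KO treadmill, 3.97, 2.47 and 2.88 CPM in KO sedentary, 4.12, 1.78 and 2.34 CPM in WT treadmill and 4.71, 2.98 and 2.52 CPM in WT sedentary muscle. Its lane difference was 0.87, at 36 to 157 counts per library, and the call was lost without either library of lanes 7 and 8. Pdgfra, the receptor that marks fibro-adipogenic progenitors, ranged over 26.9 to 37.7 CPM and rose by 0.29, the lowest rise that passed, and the call was lost without any 1 of 3 WT libraries. Counts of Pdgfra and Ctgf are uncertain through exon overlap with genes on the other strand.

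Beside this lane pattern, markers of other cells moved too. Of all genes tested 9.43% rose in lanes 7 and 8 and 18.9% passed in either direction. Of 8 other fibroblast markers 7 rose in lanes 7 and 8, among them Gsn by 0.60 and Pi16 by 0.94, and their summed level was 1772.2 and 1818 CPM in the libraries of lanes 8 and 7, against 1100.5 to 1588.6 CPM in the other 10. Of 10 macrophage markers 8 rose, among them the complement genes C1qa by 0.95 and C1qb by 0.92, and they summed to 414.53 and 312.99 CPM in the libraries of lanes 8 and 7, against 156.33 to 341.95 CPM in the others. Of 8 tenocyte markers 0 passed, and their sums of 156.04 and 207.32 CPM lay inside the range of the others, 135.87 to 253.56 CPM. The 6 mitochondrially encoded mRNAs that were tested all fell, by 0.32 to 0.52, and summed to 183880 and 154790 CPM, against 199560 to 238930 CPM. Of 8 endothelial markers Emcn fell and 0 rose, of 7 pericyte and smooth muscle markers Pdgfrb rose, of 6 satellite cell markers Vcam1 rose, of 8 myofibre genes Ckm rose, and of 6 Schwann cell and 7 adipocyte markers 0 passed. The Schwann cell markers Sox10, Mag and Egr2 were under 1 CPM in every library. The part of these cell types in the lane pattern was not tested.

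The first question of the design is what loss of NRF2 does to these genes. Without lane in the fit the answer was no gene past the threshold in either exercise state or on average. In sedentary muscle 0 of the 40 passed (background 0.19% of all genes tested), with a median log2 difference of 0.05 against 0.01 over all genes. In treadmill muscle 0 passed (0.162%), with a median of -0.01 against 0.01. Averaged over exercise states 0 passed (0.69%), with 22 of the 40 above 0 and a median of 0.01 against 0.01. The genes with the smallest p on average were Dcn with 0.18 (SE 0.06, adjusted p = 0.263), Aspn with 0.28 (SE 0.11, adjusted p = 0.309) and Cilp with 0.26 (SE 0.13, adjusted p = 0.45). DESeq2 and limma on the deposited RPKM values called 0 in each of the 3 comparisons.

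In sedentary muscle Aspn averaged 71.4 ± 7.49 CPM in KO and 50.2 ± 12.7 CPM in WT animals (SD, n = 3 each), a log2 difference of 0.51 (SE 0.15, adjusted p = 0.377). Cilp and Lox followed with 0.43 and 0.28. Dcn averaged 1096 ± 46.8 CPM in KO and 985 ± 12 CPM in WT sedentary muscle, and was the 1 gene of the 40 whose KO sedentary libraries all lay above the WT sedentary ones, against 6.47% of all genes tested. In treadmill muscle Timp3 averaged 89.9 ± 7.81 CPM in KO and 71.3 ± 3.96 CPM in WT animals, with 0.33 (SE 0.13, adjusted p = 0.674). Dcn and Loxl1 followed with 0.21 and -0.41.

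With lane as a term, 4 genes rose in KO muscle and 0 fell, averaged over exercise states, against 1.86% of all genes passing in either direction and 0.81% rising. Col6a1 had a log2 difference of 0.30 (SE 0.05, adjusted p = 0.00612), Serpinf1 of 0.31 (SE 0.06, adjusted p = 0.0154), Col6a3 of 0.37 (SE 0.08, adjusted p = 0.0253) and Timp2 of 0.26 (SE 0.06, adjusted p = 0.0362). These are 1.2-fold to 1.29-fold differences. Of the 40 genes 40 were above 0 (38 or more when any 1 library was left out), with a median of 0.24 against 0.01 over all genes tested. With no KO library on lanes 7 and 8, this average sets the 6 KO libraries against the 4 WT libraries of lanes 3 and 4. The lane difference has the same 4 WT libraries as its reference, so the 2 patterns are not separate results. The differences ran from 0.02 for Loxl1 to 0.51 for Fn1, and collagens VI and XIV had the highest median of the role groups, 0.33. In the values by library given above, Col6a1 and Serpinf1 in every KO library except KO treadmill replicate 3 lay between the WT libraries of lanes 3 and 4 and those of lanes 7 and 8.

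**Figure D3:**
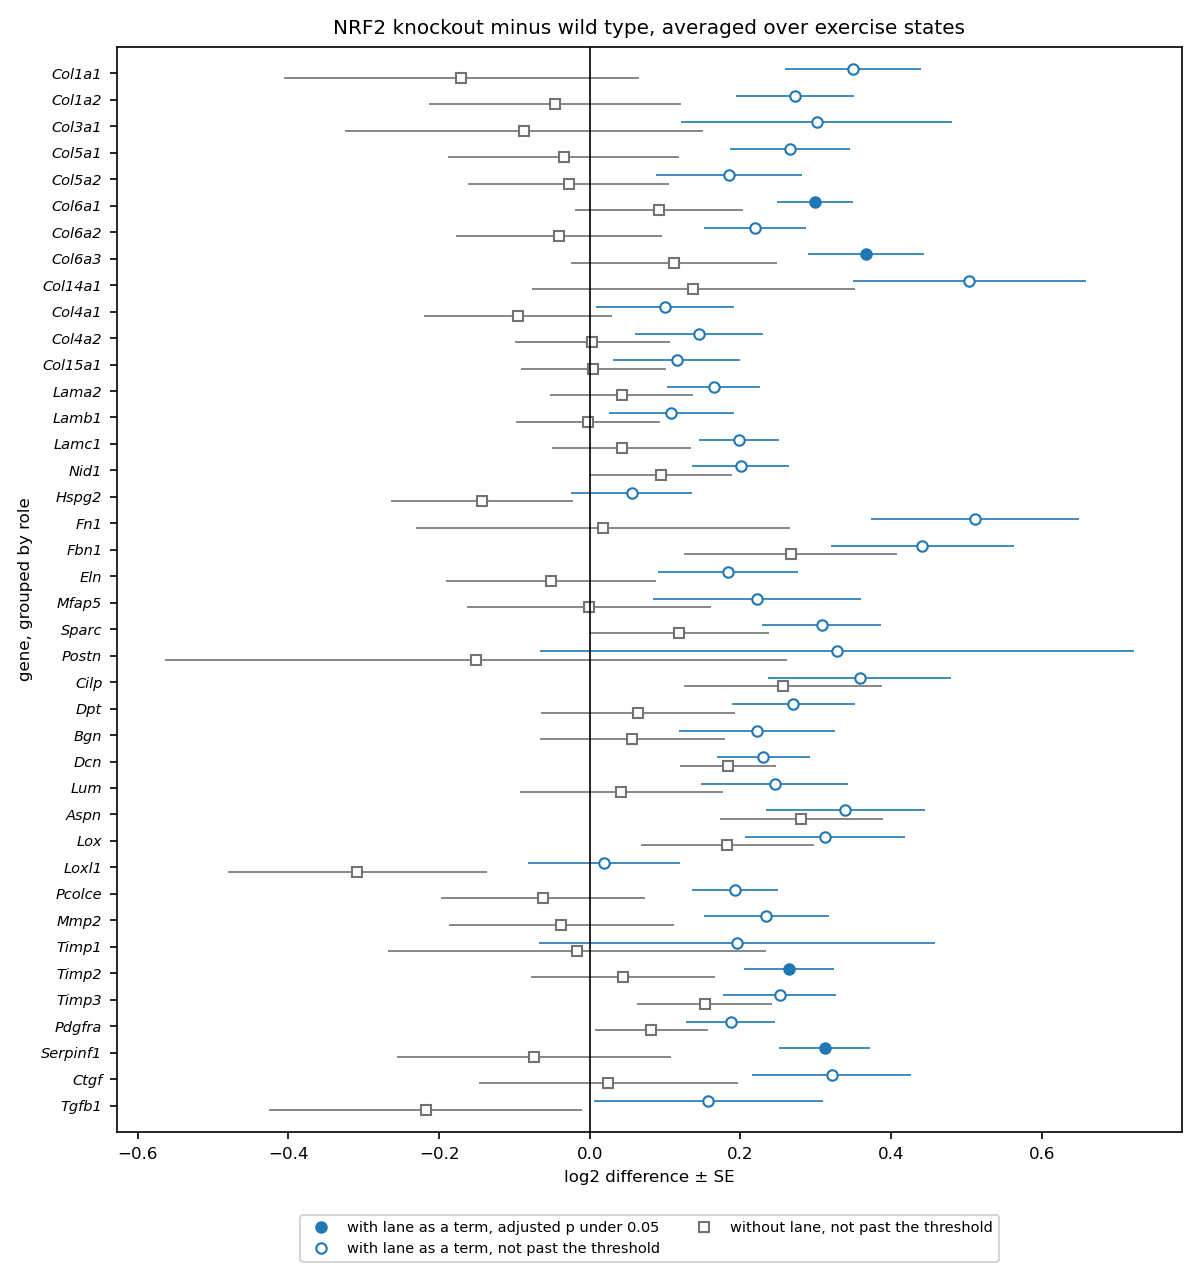
Log2 difference between KO and WT muscle for each gene, averaged over exercise states, with lane as a term (circles, filled where adjusted p was under 0.05) and without it (squares). Bars are standard errors. With lane in the fit the difference rests on the 6 KO libraries and the 4 WT libraries of lanes 3 and 4. With lane all 40 circles lie right of 0 (median 0.24) and 4 are filled; without it the squares centre on 0 (median 0.01).

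Without the libraries of lanes 7 and 8, 3 genes rose, Fn1, Col6a3 and Col6a1 (background 0.386%), and with lanes 3 and 4 as a term 6 rose (0.946%), these 3 with Serpinf1, Timp2 and Dcn. Within lane 3 alone 6 genes rose (0.283%), namely Col3a1, Fn1, Col6a3, Dpt, Fbn1 and Col1a1, and within lane 4 alone 0 did. The log2 difference of Col6a1 was 0.29 within lane 3 and 0.31 within lane 4, and that of Serpinf1 0.27 and 0.34. Timp2 had 0.27 in each, and Col6a3 had 0.53 within lane 3 and 0.24 within lane 4. All these fits compare KO libraries with the 4 WT libraries of lanes 3 and 4, or with some of them. They draw on the libraries that the fit with lane as a term compares, so they are no separate check of it.

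These 4 calls rested on few libraries. The count of 4 became 0 without WT treadmill replicate 2 and 20 without WT sedentary replicate 3, and of 17 alternatives Timp2 was lost under 6, Col6a3 under 5, Serpinf1 under 3 and Col6a1 under 1, without WT treadmill replicate 2 (adjusted p = 0.0566). The count was 4 with DESeq2 size factors in edgeR (background 0.817%), 5 with library totals alone (1.09%), 9 by DESeq2 (1.16%) and 25 without the filter on low counts (1.84%). The fit without the filter may understate the spread among libraries, as given below for Postn. By exercise state with lane as a term, 0 genes passed in sedentary muscle (background 0.571%), with 39 of 40 above 0 and a median of 0.28. In treadmill muscle Serpinf1 rose by 0.39 (SE 0.08, adjusted p = 0.0416), where 0.317% of all genes tested rose, with 37 of 40 above 0 and a median of 0.21.

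Markers of other cells stood beside this shift as well. In the same fit, 8 of 8 other fibroblast markers, 8 of 8 tenocyte markers and 10 of 10 macrophage markers were above 0 in KO muscle, with medians of 0.25, 0.30 and 0.36, and of these 26 genes Dpp4 and Smoc2, both fibroblast markers, passed. Of all genes tested 0.81% rose in this fit and 1.86% passed in either direction. All 7 pericyte and smooth muscle, 6 Schwann cell and 7 adipocyte markers were above 0 too, with medians of 0.21, 0.26 and 0.23 and 0 passed, and of 6 satellite cell markers Vcam1 rose. Of 8 endothelial markers 7 were above 0, with a median of 0.08 and 0 passed, and they summed to 208.28 to 260.32 CPM in KO libraries and 194 to 267.26 CPM in WT libraries of lanes 3 and 4. The 8 myofibre genes had a median of 0.03 and the 6 mitochondrially encoded mRNAs one of -0.06. Macrophage markers summed to 202.56 to 341.95 CPM in KO libraries and 156.33 to 304.61 CPM in WT libraries of lanes 3 and 4. Tenocyte markers summed to 185.37 to 253.56 CPM in KO libraries and 135.87 to 203.37 CPM in WT libraries of lanes 3 and 4. The part of these cells in the differences was not tested.

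The second question is what the treadmill did. None of the 40 genes passed in either genotype or on average, yet most values lay below 0. In KO muscle 37 of 40 were below 0 with a median of -0.23, against a median of -0.00 over all genes tested, and 0 passed, as did 0% of all genes. In WT muscle 34 of 40 were below 0 with a median of -0.14, and 0 passed, as did 0% of all genes. Averaged over genotypes 37 of 40 were below 0 with a median of -0.17, and 0 passed, as did 0% of all genes. DESeq2 called 0 in KO, in WT and on average.

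In KO muscle 16 of the 40 genes, or 40%, had every treadmill library below every sedentary one, against 6.76% of all genes tested, and 0 had every treadmill library above, against 5.75%. They were Col1a1, Col5a1, Col5a2, Col6a1, Col6a2, Col4a2, Col15a1, Hspg2, Fbn1, Postn, Cilp, Bgn, Lum, Aspn, Timp1 and Tgfb1. Aspn averaged 49.3 ± 3.23 CPM in KO treadmill and 71.4 ± 7.49 CPM in KO sedentary muscle (SD, n = 3 each), with a log2 difference of -0.54 (SE 0.15, edgeR adjusted p = 1). Postn averaged 30.9 ± 8.82 CPM in KO treadmill and 78.6 ± 19.6 CPM in KO sedentary muscle, with -1.35 (SE 0.59). Cilp had -0.50 and Bgn -0.42. The KO treadmill group had 1 library on lane 3 and 2 on lane 4, and the KO sedentary group 2 on lane 3 and 1 on lane 4.

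Of the markers of other cells, 0 passed for the treadmill in KO muscle, and their summed levels overlapped between the groups. Other fibroblast markers summed to a median of 1486.7 CPM in KO treadmill and 1394.2 CPM in KO sedentary muscle, although 7 of the 8 had log2 differences below 0. Macrophage markers had medians of 248.29 CPM in KO treadmill and 273.03 CPM in KO sedentary muscle, with 8 of 10 below 0. Endothelial markers had medians of 210.27 CPM in KO treadmill and 240.75 CPM in KO sedentary muscle, with 8 of 8 below 0, and 8 of 8 tenocyte markers were below 0 too. Myofibre genes summed to a median of 123200 CPM in KO treadmill and 113810 CPM in KO sedentary muscle, and mitochondrially encoded mRNAs to 224510 CPM in KO treadmill and 210330 CPM in KO sedentary muscle. The medians of the log2 differences were -0.04 for 7 pericyte and smooth muscle, -0.04 for 6 Schwann cell, -0.40 for 7 adipocyte and -0.03 for 6 satellite cell markers. Their part in the treadmill differences was not tested.

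**Figure D4:**
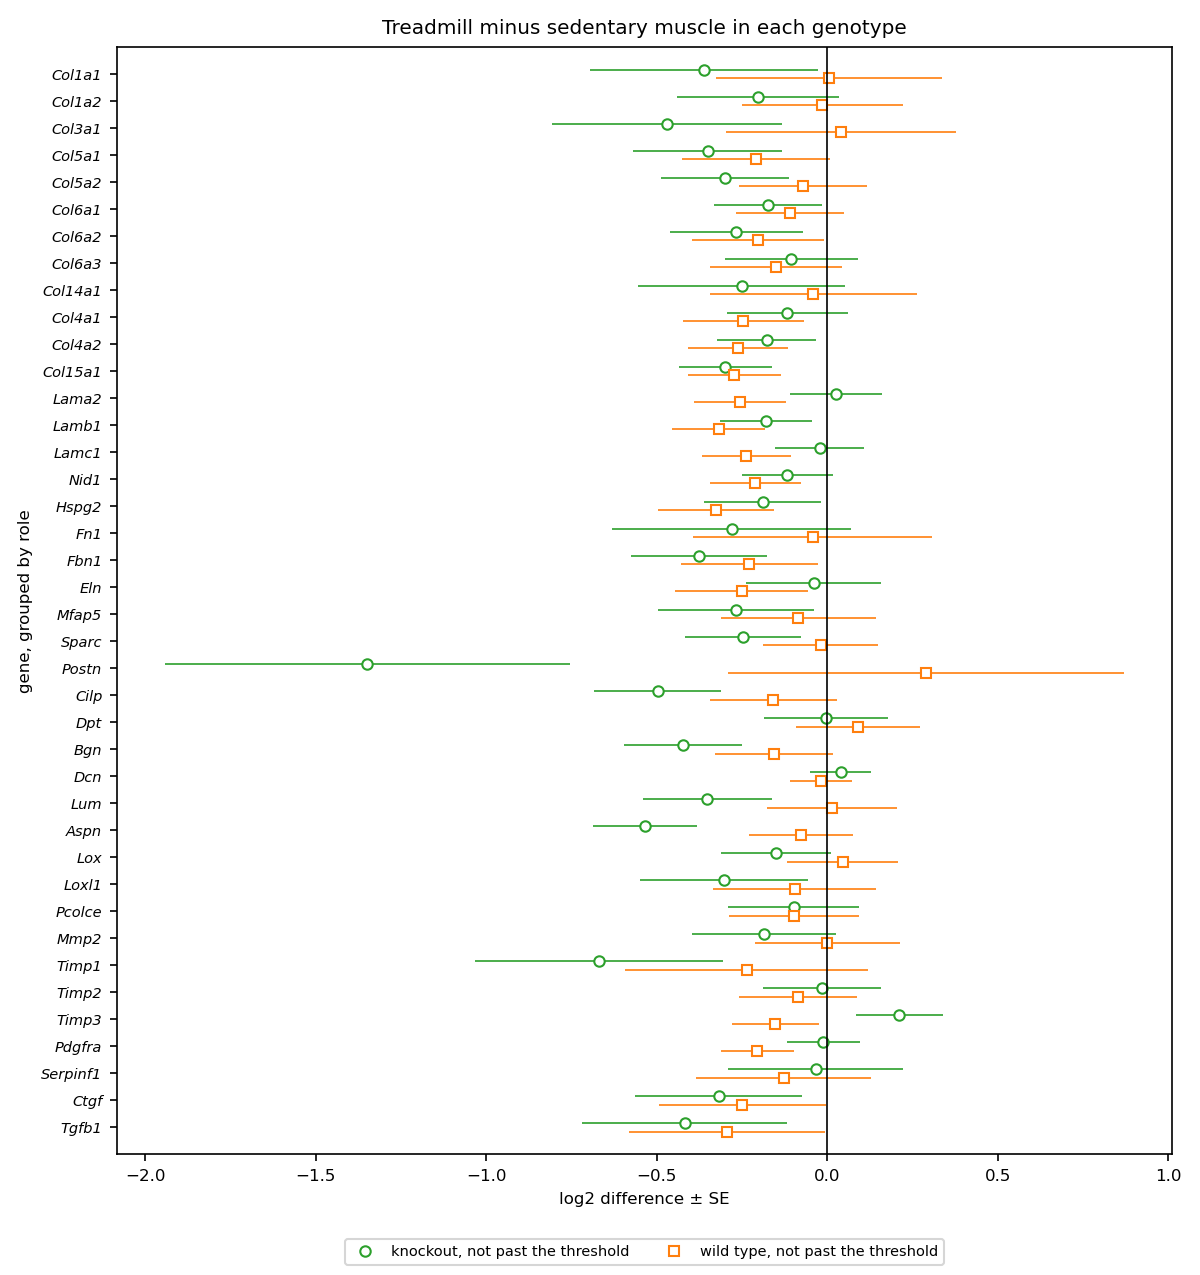
Log2 difference between treadmill and sedentary muscle for each gene in KO (green circles) and WT (orange squares) animals, 3 libraries per group, with standard errors. No gene passed in either genotype; Postn lies farthest from 0 in KO, at -1.35, and has the widest bars.

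In WT muscle 0 of the 40 genes had treadmill and sedentary libraries that did not overlap, in either direction, against 2.87% of all genes with every treadmill library below and 2.85% with every treadmill library above. Each WT group held 1 library of lanes 7 and 8. In 27 of the 40 genes (67.5%, against 18% of all genes tested) both of these lay above the other WT libraries. In those genes the WT groups had to overlap, so this 0 is not comparable with the 16 genes in KO muscle. The smallest p belonged to basement membrane genes and the fibroblast receptor: Lamb1 with -0.32 (SE 0.14, edgeR adjusted p = 0.999), Col15a1 with -0.27 and Pdgfra with -0.21. All 8 basement membrane genes were below 0, with a median of -0.26. The WT median depended on the libraries of lanes 7 and 8: it was -0.41 without WT treadmill replicate 1 and 0.05 without WT sedentary replicate 1. In KO muscle it stayed between -0.31 and -0.14 when libraries were left out in turn.

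With lane as a term 0 genes passed for the treadmill in KO (background 0.183%), in WT (0%) or on average (0.197%), and the average median was -0.20. Within lane 4 alone, with 5 libraries, 3 genes fell on the treadmill (background 0.0695%): Postn by 1.11, Cilp by 0.63 and Aspn by 0.56 on the log2 scale. The sedentary libraries of lane 4 were KO sedentary replicate 3 and WT sedentary replicate 3 alone. The latter was the highest WT sedentary library in all 3 genes. Within lane 3 alone 0 passed.

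**Figure D5:**
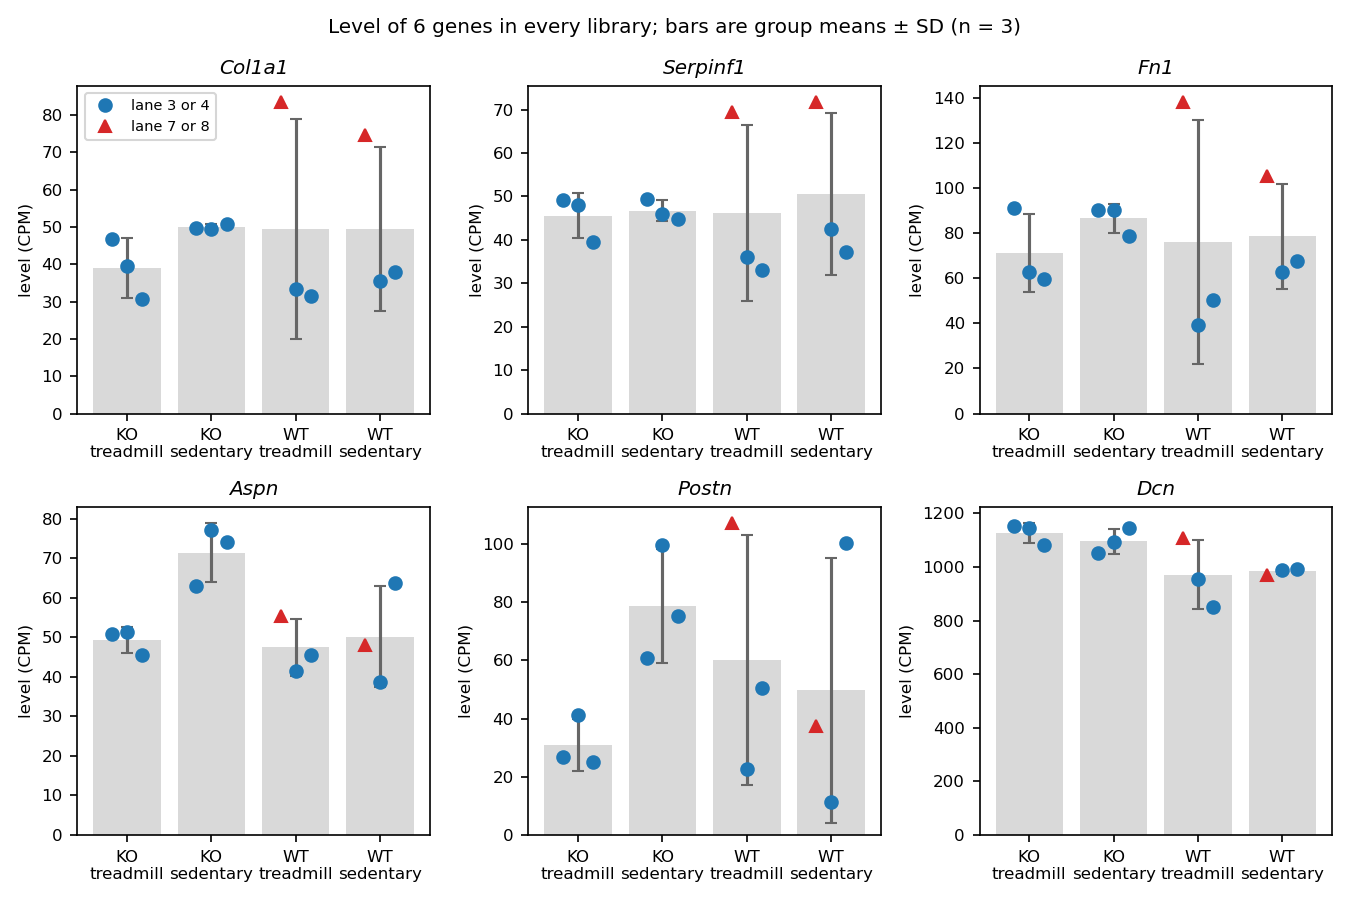
Level in CPM of 6 genes in every library, with KO treadmill, KO sedentary, WT treadmill and WT sedentary groups from left to right. Points are libraries (triangles for lanes 7 and 8), grey bars are means and error bars are SD (n = 3). In Col1a1, Serpinf1 and Fn1 the triangles stand above the rest; in Aspn and Postn KO treadmill lies below KO sedentary without overlap; in Dcn KO lies above WT of lanes 3 and 4.

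The third question is whether the treadmill acted differently in the 2 genotypes. Of the 40 genes 0 passed the interaction test, as did 0% of all genes, and with lane as a term 0 passed as well (0%). Aspn came nearest, with an interaction (treadmill difference in KO minus that in WT) of -0.46 (SE 0.22, edgeR adjusted p = 1). Timp3 had 0.36 and Postn -1.64 (SE 0.83). So the non-overlap of KO groups in 16 genes and of WT groups in 0 is not shown to be a difference between genotypes. The filter on low counts bore on these zeros, except that of the treadmill in WT muscle. All 40 genes passed the filter, so the same 40 were tested with and without it. Postn had 1250, 273 and 2343 counts in the WT sedentary libraries. Without the filter, over 26350 genes, the spread of Postn was put far lower (SE 0.10 in place of 0.59 for the treadmill in KO). The calls that follow may thus understate the spread among libraries. Then 3 genes rose in sedentary KO muscle (background 0.505%), 3 fell in treadmill KO muscle (0.546%), 4 passed in the average genotype difference (2.15%), 5 fell with the treadmill in KO (0.345%), 5 fell with the treadmill on average (0.277%) and 1, Postn, passed the interaction below 0 (0.14%).

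Other genes of the same biology were read from 5 lists. Of 27 other matrix proteins, Ogn, the proteoglycan osteoglycin, rose in KO muscle on average without lane in the fit by 0.33 (SE 0.07, adjusted p = 0.0493). In that fit 0.127% of all genes tested rose. With lane as a term 5 rose and 0 fell, where 0.81% of all genes tested rose and 1.86% passed in either direction. The 5 were Prelp, a leucine-rich proteoglycan, by 0.43 (SE 0.06, adjusted p = 0.00257), the matricellular Thbs2 by 0.59 (SE 0.09, adjusted p = 0.00433), the fibril-associated collagen Col12a1 by 0.48, Ogn by 0.33 and Fbln1. Fits with libraries left out were not read for these genes. Of 15 collagen processing genes, 14 TGF-beta signalling genes, 11 matrix receptors and 10 other matrix proteases and inhibitors, 0 passed for genotype in either fit. For the treadmill 0 genes of the 5 lists passed without lane, and all 27 other matrix proteins were below 0 on average, with a median of -0.15.

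For lanes 7 and 8 the counts in these lists stand against 9.43% of all genes tested that rose and 18.9% that passed in either direction. Of the 27 other matrix proteins 11 rose, among them Ecm1 by 0.91, Tnxb by 0.78, Fbln2 by 0.59 and Prelp by 0.47. Of the 15 collagen processing genes 6 rose, including the procollagen proteases Bmp1 by 0.59 and Adamts2 by 0.70 and the collagen chaperone Serpinh1 by 0.48. Of the 10 other proteases and inhibitors 5 rose, including Ctsk, a collagen-degrading protease, by 1.15 and Mmp3 by 1.998 (SE 0.52). Of the 14 TGF-beta signalling genes 6 rose and 2 fell. The receptor Tgfbr2 rose by 0.34 and the receptor Tgfbr1 fell by 0.34. Of the 11 matrix receptors 2 rose, the fibronectin receptor chain Itga5 by 0.56 and the collagen receptor Ddr2 by 0.40.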

How the data were processed

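Muscle RNA was sequenced after Illumina's TruSeq RNA kit v2, which does not mark strand, per the labels' protocols. Per the submitters' processing notes, the tools were bcl2fastq 1.8.4, STAR 2.4.1d and featureCounts 1.4.6-p4, with GRCm38; which annotation release and strand setting were used is not stated there. As deposited by the authors, the data are raw counts per Ensembl gene, on which all tests rest, and RPKM values, also deposited. The RPKM table does not use each library's own total: implied gene lengths were constant within 0.1% in 2719 of 2719 well-counted genes with the totals taken in turn down the table, and in 0 with each library's own, so RPKM served as an alternative only, as log2(RPKM + 0.1) in limma 3.58.1.

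The tests used edgeR 4.0.16 (R 4.3.3) with TMM factors, filterByExpr (minimum count 10, total 15; 99.94% of counts kept), 1 coefficient per group, the quasi-likelihood test with 8 residual degrees of freedom (6 with lane as a term of 3 levels: lane 3, lane 4, lanes 7 and 8), and Benjamini-Hochberg adjustment over all genes tested, threshold 0.05. A total of 8 comparisons were made. CPM use the TMM factors, and TPM add the union of exons of a GENCODE annotation of GRCm38. Tests were checked on simulated counts. Alternatives were DESeq2 1.42.0, its size factors in edgeR, library totals, no filter, lanes left out or taken singly, a replicate block, RPKM, and each library left out. Fits of a single lane had 1 term for genotype and 1 for exercise in place of a coefficient per group.

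Members and lists were chosen with earlier results of these data known. The rule for named genes gives values in every library for the 25 members with the smallest p, named list genes by smallest p among those that passed, up to 4 a list, and markers by sums and up to 2 genes. One list gene that this rule would name is not reported here. Col3a1, Lum, Dcn, Postn and Cilp, outside the 25, and the markers Dpp4, Smoc2, Emcn, Pdgfrb, Vcam1, Ckm and the matrix gene Fbln1 were added after their values were seen. Same-numbered libraries of the WT groups deviated together (correlations 0.537, 0.301 and 0.259, each above 0.1), so the numbers were taken as possible pairs. They coincide with lanes 7 and 8, lane 3 and lane 4, so pairing and lane cannot be told apart. The main fits have no term for pairs, and the replicate block was run only as an alternative. In every other pair of groups that shared a genotype or an exercise state, at least 1 correlation was below 0.1. Pairs that shared neither were not checked.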

Additional observations from a re-analysis of the deposited data

How the results depend on the processing

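Leaving out each library in turn gave 0 to 0 genes past the threshold in each of the 7 comparisons without lane, 0 to 20 for genotype averaged with lane as a term and 18 to 34 for lanes 7 and 8. Without the filter on low counts the counts were 3 for genotype in sedentary and 3 in treadmill muscle, 5 for the treadmill in KO, 1 for the interaction, 4 for genotype averaged, 5 for the treadmill averaged, and 25 for genotype averaged with lane as a term. The fits behind these counts may understate the spread among libraries. Lane as a term gave 1 for genotype in treadmill muscle and 4 averaged; without lanes 7 and 8 the average gave 3, lane 3 alone gave 6, and lane 4 alone gave 3 for the treadmill averaged. DESeq2 gave 9 for genotype averaged with lane as a term. The cause of these moves was not tested. The replicate block, which pairs same-numbered libraries, gave 0 in each of the 7 comparisons without lane, in all 12 libraries, and 0 for the treadmill in the 6 WT libraries alone, and changed no call there; it was not run for lanes 7 and 8 or together with lane as a term. DESeq2 size factors and library totals changed no count by over 1.5 times. Without WT treadmill replicate 1, 4 of the 40 lane differences lay below 0, against 0 with all libraries; for genotype averaged with lane as a term at most 2 did, without WT sedentary replicate 2. The median of the 40 genes changed sign too: for genotype averaged it ran from -0.06 without WT treadmill replicate 2 to 0.33 in lane 3 alone. The alternatives for genotype averaged with lane as a term, and the 6 WT libraries alone for lanes 7 and 8, were chosen after seeing the data. With 3 libraries per group, the SE beside each value sets what could be resolved, and Timp1 and Tgfb1 are limited by their low counts.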
